A study of Bos taurus with 16 samples.

Results

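GW-501516, an agonist of the peroxisome proliferator-activated receptor (PPAR) δ, was compared with untreated slices of the same liver in precision-cut liver slices (PCLS) from primiparous Jersey cows early after calving. The comparison held 6 of the 16 libraries of the series, a control library and a GW-501516 library from each of cows 581, 576 and 567, and the members are the 17995 of 28786 genes that had a count over 4 in at least 1 of those 6 libraries. Control slices and slices with 50 µM GW-501516 were cultured for 18 h. The study brought its treatments to 0.8% of the vehicle dimethyl sulfoxide, while the control slices are labelled untreated. Whether the control slices held the vehicle is not stated outright. Slices of the same cows with 100 µM WY-14643, a PPARα agonist, or 100 µM rosiglitazone, a PPARγ agonist, entered the fit and are given beside the results. Duplicate slices of a treatment were pooled into 1 library, so a replicate is a cow, and a slice holds every cell type of the liver but has no blood supply. Cow 574 was left out by the study for degraded RNA and was not part of the comparison.

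PPARδ is a nuclear receptor that binds fatty acids, pairs with the retinoid X receptor and switches on genes of fatty acid uptake, oxidation and storage. Its best known targets in mammals include PDK4, a kinase that holds glucose carbon back from oxidation, and PLIN2, a coat protein of lipid droplets. In the liver after calving, fatty acids released from adipose tissue arrive in amounts that exceed oxidation, which is why the receptor is of interest in dairy cows.

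The 6 libraries held 3081981 to 8215399 gene counts. The deepest was the GW-501516 library of cow 581, which is also 1 of 3 libraries in the fit whose labels carry a mark with no stated meaning. The 18S ribosomal RNA gene RN18S1 took 16.4% to 63.8% of these counts. In the 3 marked libraries it took 16.4% (GW-501516 of cow 581), 14.1% and 11.9% (WY-14643 of cows 581 and 567). In the rest of the fit it took 33.1% to 63.8%. The highest share was in the GW-501516 library of cow 576, which also had the fewest genes with a count, 9993 against 12933 to 17057 in the other 5, and therefore stands apart. The part of depth and RNA quality in the results was not tested. Without that library 91 genes were called higher and 18 lower, and 41 of the 70 genes called higher with it and 10 of the 16 called lower kept their call. All 16 hepatocyte markers had counts in 5 of the 6 libraries, and 1 had no count in the GW-501516 library of cow 576. Their summed level was 4076, 2616 and 6564 CPM (counts scaled to a common, TMM-adjusted library total) in the control slices of cows 581, 576 and 567. In their GW-501516 slices it was 5990, 6273 and 4741 CPM, higher in cows 581 and 576 and lower in cow 567.

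A gene was called when its Benjamini-Hochberg adjusted p, from edgeR's quasi-likelihood test with the cow as a block, was under 0.2, the threshold the study used. By this test 70 genes were called higher in GW-501516 slices, which is 0.389% of those tested, and 16 lower, which is 0.0889%. The counts depend on the tool and the libraries: DESeq2 with the cow as a block called 563 higher and 394 lower, and edgeR without the 3 marked libraries 147 higher and 189 lower. At an adjusted p under 0.1 the counts were 34 higher and 9 lower, and at 0.05 they were 23 higher and 3 lower. Without the pairing by cow (no replicate block) 9 genes were called higher and 1 lower, and all 10 were among those called with it. The calls also rest on single libraries. Without the control library of cow 581, 9 genes were called higher and 1 lower, and 6 of the 86 genes were called whichever of the 6 libraries was left out.

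All 86 called genes moved the same way in each of the 3 cows, a property shared by 21.6% of all genes tested (10.3% higher in all 3 pairs and 11.4% lower). Each ratio below is the log2 ratio of GW-501516 to control within a cow after 1 CPM was added. Of the genes called higher, 41 of 70 were at least 2-fold higher in every cow, and of those called lower, 13 of 16 were at least 2-fold lower in every cow, against 1.07% and 1.38% of all genes. In 68 of the 70 genes every GW-501516 library lay above every control library, and in 13 of the 16 every one lay below, which held for 5.06% and 5.23% of all genes. The test itself chose these genes, so the shares describe them and add no support. The size differed between animals. For the genes called higher the median ratios were 2.35, 2.49 and 1.14 in cows 581, 576 and 567, and cow 567 had the smallest ratio in 57 of the 70. For the genes called lower the medians were -1.67, -1.84 and -1.56 in the same order of cows.

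**Figure D1:**
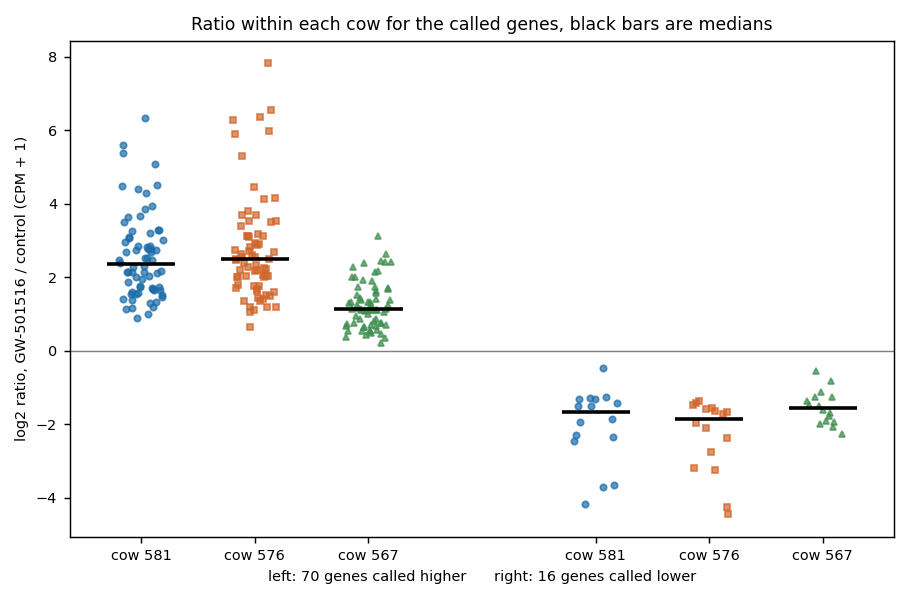
Log2 ratio of GW-501516 to control (CPM + 1) in each cow for the 70 genes called higher and the 16 called lower, 1 point per gene, with black bars at the medians. The ratios of genes called higher are smaller in cow 567 (median 1.14) than in cows 581 and 576 (2.35 and 2.49), while the medians of the genes called lower are between -1.84 and -1.56.

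Genes of the response to amino acid shortage and to misfolded protein in the endoplasmic reticulum (ER) formed the group with the most calls. Of the 30 genes tested in this list 6 rose and 0 fell, and the other 24 did not pass the test. The median log2 fold change of the list was 0.98 against -0.04 over all genes, and 17 of the 30 were higher in all 3 cows. Over all genes 0.389% were called higher and 10.3% were higher in all 3 cows. TRIB3, a pseudokinase induced by the factors ATF4 and DDIT3, was at 35.0, 29.02 and 66.5 CPM in the control slices of cows 581, 576 and 567 and at 300.7, 349.7 and 177.9 CPM in their GW-501516 slices. The 2 groups did not overlap, and the log2 fold change was 2.73 ± 0.41 (SE of the fit, n = 3 cows, adjusted p = 0.00171), a 6.61-fold rise. Here and below the SE of a fold change is that of the fit and does not measure the spread between cows. The ratios of TRIB3 were 3.07, 3.55 and 1.41 in cows 581, 576 and 567. It was called in each fit that left out 1 library. DDIT3, which encodes the stress factor CHOP, rose from 115 ± 36.4 to 313 ± 160 CPM (SD, n = 3), a log2 fold change of 1.40 ± 0.35 (SE, adjusted p = 0.118).

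The ER chaperones and their partners followed. PDIA4, a protein disulfide isomerase, was at 43.0, 12.6 and 39.6 CPM in control slices and at 243.7, 116.9 and 58.5 CPM in GW-501516 slices, with a ratio of 0.55 in cow 567 against 2.48 and 3.12 in the others. Its log2 fold change was 2.31 ± 0.49 (SE, adjusted p = 0.0439). DNAJB9, a co-chaperone of the ER, rose by 1.95 ± 0.43 on the log2 scale (adjusted p = 0.0638). HERPUD1, which serves the removal of misfolded proteins, rose by 1.56 ± 0.38 (adjusted p = 0.104), and SLC3A2, the heavy chain of amino acid transporters, by 1.37 ± 0.36 (adjusted p = 0.169). Outside this list, HYOU1, a large ER chaperone, rose by 1.82 ± 0.39 (adjusted p = 0.0439), and ERO1A, an ER oxidase kept in the hypoxia list, by 1.50 ± 0.36 (adjusted p = 0.0957). DDIT3, HERPUD1, SLC3A2 and HYOU1 were chosen after their values were seen. Without the control library of cow 581, TRIB3 was the only one of these 8 genes still called, and the other 7 had adjusted p of 0.558 to 0.888. Calls also ended for 5 of the 8 without the control library of cow 567 (0.243 to 0.453), for 4 without that of cow 576 (0.277 to 0.312), for 5 without the GW-501516 library of cow 576 (0.236 to 0.349) and for SLC3A2 without that of cow 581 (0.309). The list's count was 2 without the GW-501516 library of cow 576, while its median was 0.99.

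Cytosolic heat shock genes, which encode chaperones that refold damaged proteins, formed a second group. Of the 13 tested, 3 rose and 0 fell, against 0.389% of all genes called higher. The median log2 fold change was 0.90, and 8 were higher in all 3 cows, against 10.3% of all genes. DNAJB1, the co-chaperone of HSP70, was at 437.6, 195.1 and 276.0 CPM in control slices and at 1319, 880.0 and 694.0 CPM in GW-501516 slices. The groups did not overlap, and the log2 fold change was 1.72 ± 0.34 (SE, adjusted p = 0.0216). HSPA1A, the inducible HSP70, rose by 1.67 ± 0.41 (adjusted p = 0.106) and BAG3, its nucleotide exchange factor, by 1.35 ± 0.35 (adjusted p = 0.137). HSPA6, another inducible HSP70 not held in the list, was at 56.9, 10.6 and 51.6 CPM in control slices and at 419.2, 75.95 and 124.3 CPM in GW-501516 slices, a log2 fold change of 2.38 ± 0.40 (adjusted p = 0.00506). UBB, a ubiquitin gene chosen after its values were seen, rose by 1.35 ± 0.32 (adjusted p = 0.0932). HSPA6 was called in each fit that left out 1 library. DNAJB1, HSPA1A, BAG3 and UBB lost their calls when the control library of cow 581 was omitted (adjusted p of 0.284 to 0.888) or of cow 567 (0.213 to 0.456). Calls ended for BAG3 and UBB without the control library of cow 576 (0.240 to 0.295), for HSPA1A and UBB without the GW-501516 library of cow 581 (0.234 to 0.375), and for BAG3 without that of cow 576 (0.249).

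**Figure D2:**
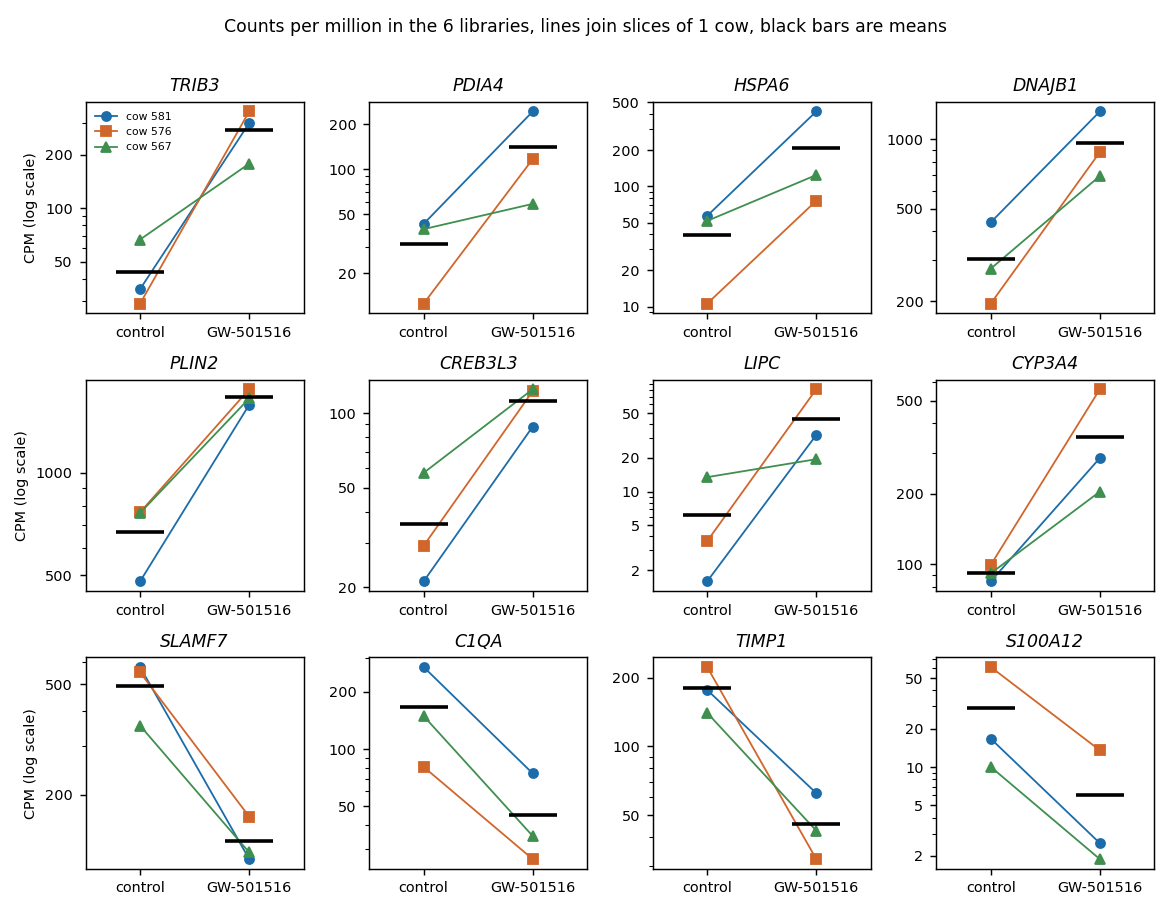
CPM on a log scale in the control and GW-501516 libraries for 12 genes, with 1 line per cow and black bars at the means of 3 libraries. Every line rises for the 8 genes of the upper rows and falls for the 4 of the lowest row, and the smallest rise relative to control in the upper rows is that of LIPC in cow 567 (13.5 to 19.5 CPM).

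Known PPAR target genes were led by PLIN2 and CREB3L3. Of the 52 tested, 2 rose and 0 fell, 12 had an unadjusted p under 0.05, all of them higher, and the median log2 fold change was 0.59. Over all genes 840 of 17995 were higher at that unadjusted p, and 0.389% were called higher. By cow the median ratios of the list were 1.18, 0.00 and 0.38 in the same order as above. PLIN2 was at 479.0, 764.4 and 761.1 CPM in control slices and at 1583, 1759 and 1653 CPM in GW-501516 slices. All GW-501516 libraries lay above all control libraries and within a narrow range, and the log2 fold change was 1.34 ± 0.27 (SE, adjusted p = 0.0251), a 2.53-fold rise. CREB3L3, an ER-bound factor of triglyceride metabolism in hepatocytes, went from 36.0 ± 19.1 to 111.8 ± 20.4 CPM (SD, n = 3), a log2 fold change of 1.72 ± 0.43 (SE, adjusted p = 0.119).

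Several targets missed the threshold with values on the higher side in every cow. ACADVL, which opens the mitochondrial oxidation of very long chains, had a log2 fold change of 1.40 ± 0.39 (adjusted p = 0.215). CYP4A11, a fatty acid ω-hydroxylase, had 2.03 ± 0.59 (0.240), LPIN1, a phosphatidate phosphatase, 2.33 ± 0.71 (0.295), and ACSL1, an acyl-CoA synthetase, 1.19 ± 0.37 (0.306). PDK4 was at 255.8, 277.4 and 174.0 CPM in control slices and at 477.9, 672.0 and 226.8 CPM in GW-501516 slices, a log2 fold change of 0.84 ± 0.29 (adjusted p = 0.401). NUDT7, a peroxisomal hydrolase, had 1 count over the 3 control libraries and 53, 0 and 23 counts in the GW-501516 libraries (adjusted p = 0.523). The receptor gene PPARD itself was at 6.76, 30.98 and 10.8 CPM in control slices and at 21.2, 20.1 and 5.10 CPM in GW-501516 slices. It was higher in cow 581 and lower in the other cows, and its log2 fold change was -0.03 ± 0.67 (adjusted p = 0.995). The mitochondrial β-oxidation list had a median of -0.07 over 23 genes, close to that of all genes, with median ratios of 0.79, -0.64 and -0.26 in cows 581, 576 and 567. It had no call by edgeR in the fit over all 4 treatments, 1 call by edgeR on the 6 libraries alone and 1 call by DESeq2. At an unadjusted p under 0.05, 3 of the 23 genes were higher, against 4.67% of all genes.

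Some genes of lipid storage and transport outside the list of PPAR targets were called singly. LIPC, the hepatic lipase that trims lipoproteins, was at 1.59, 3.63 and 13.5 CPM in control slices and at 32.0, 81.6 and 19.5 CPM in GW-501516 slices, and its log2 fold change was 2.95 ± 0.74 (SE, adjusted p = 0.122). Its ratio was 3.67 and 4.16 in cows 581 and 576 and 0.50 in cow 567. ANGPTL8, a secreted regulator of lipoprotein lipase, had the largest fold change of the named lipid genes that were called, 3.37 ± 0.66 on the log2 scale (adjusted p = 0.0226), from 0.398, 15.9 and 23.5 CPM to 112.1, 192.2 and 51.2 CPM. SCD, the stearoyl-CoA desaturase, rose by 1.97 ± 0.49 (adjusted p = 0.118), PLA2G12A, a secreted phospholipase A2, by 3.04 ± 0.71 (0.0834), and APOA4, an apolipoprotein chosen after its values were seen, by 2.10 ± 0.48 (0.0743). APOB, the structural apolipoprotein of very low density lipoproteins, had a log2 fold change of -1.42 ± 0.40 (0.216), and LIPA, the lysosomal acid lipase, -1.15 ± 0.37 (0.316), and both were lower in every cow without passing the test. The list of lipid droplet proteins and lipases held 20 tested genes, of which 2 rose (PLIN2 and LIPC) and 0 fell, with a median of 0.42. Of 22 fatty acid synthesis genes 1 rose (SCD), with a median of 0.07. Over all genes 0.389% were called higher and the median was -0.04. None of the 20 genes of triacylglycerol synthesis and very low density lipoproteins was called by edgeR, and the median was 0.42. At an unadjusted p under 0.05, 2 of these 20 were higher and 2 lower, against 4.67% and 2.63% of all genes. DESeq2 called 2 of them higher and 1 lower. Without the control library of cow 581 none of the 7 lipid genes called here was called (adjusted p of 0.295 to 0.872). Without that of cow 567 PLIN2, CREB3L3, SCD, PLA2G12A and APOA4 were lost (0.213 to 0.370), without that of cow 576 CREB3L3, LIPC, SCD, PLA2G12A and APOA4 (0.207 to 0.491), and without the GW-501516 library of cow 576 CREB3L3, LIPC, SCD and APOA4 (0.207 to 0.305).

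Genes of hepatocyte function were called singly rather than as lists. The gene named CYP3A4 in the files, a drug-metabolizing cytochrome P450, had steady controls, 84.3, 99.1 and 91.3 CPM, and was at 284.2, 560.1 and 204.1 CPM in GW-501516 slices, a log2 fold change of 1.81 ± 0.33 (SE, adjusted p = 0.012). In the RefSeq table used here (ARS-UCD2.0) that name is a synonym of CYP3A28 and CYP3A74, so reads may be shared among close copies. CYP3A5 had 1.74 ± 0.54 (0.306) and was not called. LBP, the acute phase protein that binds bacterial lipopolysaccharide, rose by 2.02 ± 0.38 (adjusted p = 0.015), from 31.4, 25.1 and 56.8 CPM to 217.3, 104.7 and 129.2 CPM.

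MT1A, a metal-binding metallothionein, rose by 1.74 ± 0.39 (adjusted p = 0.0606), although its groups overlapped: 965.5, 169.7 and 311.0 CPM in control slices and 4715, 717.6 and 530.1 CPM in GW-501516 slices, since the levels differed more between cows than between treatments. NFIL3, a repressor linked to the circadian clock, rose by 1.62 ± 0.34 (0.0439), and DBP, a clock output gene, had -1.85 ± 0.71 (0.493). IGFBP1, a hepatic binding protein of insulin-like growth factors chosen after its values were seen, rose by 2.39 ± 0.52 (0.0471). The plasma proteins SERPINA1 and TTR had log2 fold changes of 1.41 ± 0.40 (0.221) and 1.53 ± 0.47 (0.306) and did not pass. As lists, the 29 P450 and conjugation genes had a median of -0.10 with 1 call, and the 28 acute phase and plasma protein genes a median of 0.36 with 1 call. Over all genes 0.389% were called higher. The median ratios of the plasma protein list were 0.76, 0.82 and -0.47 in cows 581, 576 and 567. Of its 28 genes 4 were higher in all 3 cows (14.3%), against 10.3% of all genes. Without the GW-501516 library of cow 576 the plasma protein median was 0.02. CYP3A4 was called in each fit that left out 1 library. LBP, MT1A and IGFBP1 lost their calls when the control library of cow 581 was omitted (adjusted p of 0.395 to 0.721), MT1A, NFIL3 and IGFBP1 without that of cow 576 (0.295 each), and MT1A and NFIL3 without that of cow 567 (0.213 to 0.218).

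The genes with the largest rises were mostly long noncoding RNAs and genes of low level in control slices. Of the 70 genes called higher, 13 carry only a LOC number, 4 of them long noncoding RNAs in RefSeq. LOC112441628, a long noncoding RNA, had the smallest p of all genes. It was at 8.35, 4.19 and 31.8 CPM in control slices and at 210.3, 429.9 and 172.6 CPM in GW-501516 slices, and its log2 fold change was 4.46 ± 0.63 (SE, adjusted p = 0.00146). LOC112445522 went from 1.99, 2.79 and 6.12 CPM to 143.0, 223.6 and 22.5 CPM (5.17 ± 0.85, adjusted p = 0.0042). For LOC107132272 the control libraries held 1 count in all and the GW-501516 libraries 286, 684 and 9 counts (adjusted p = 0.00171). For LOC112445523 they held 0 counts, and the GW-501516 libraries 91, 282 and 5 (adjusted p = 0.015). No fold change is given for this pair of noncoding RNAs, whose counts in cow 567 were the lowest of the 3 GW-501516 libraries.

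Among protein-coding genes with a symbol and a mean of at least 50 counts, STRIP2, a subunit of phosphatase complexes, rose by 3.44 ± 0.72 on the log2 scale (adjusted p = 0.0437). MOSPD1 rose by 3.23 ± 0.69 (0.0471). Some protein-coding genes with fewer counts or only a LOC number had larger log2 fold changes. ISG20, an interferon-inducible exonuclease, rose by 2.98 ± 0.56 (0.015), from 15.5, 19.5 and 64.1 CPM to 253.4, 266.2 and 142.6 CPM. PTGER2, a receptor of prostaglandin E2, was among the most even of the named genes across animals, with ratios of 2.85, 2.24 and 2.64 and a log2 fold change of 2.89 ± 0.73 (0.132). TES, a focal adhesion protein, rose by 2.18 ± 0.40 (0.015). Without the control library of cow 581 the calls of ISG20, LOC112445522, LOC112445523, MOSPD1 and PTGER2 ended (adjusted p of 0.215 to 0.707). Those of MOSPD1, PTGER2, STRIP2 and TES ended without that of cow 576 (0.207 to 0.299), and those of PTGER2 and STRIP2 without that of cow 567 (0.272 to 0.370). PTGER2 was also lost without the GW-501516 library of cow 567 (0.219) or of cow 581 (0.217), and without the rosiglitazone library of cow 581 (0.216).

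Of the 16 genes that fell, 4 are on the lists of immune cell markers: C1QA, CD5L, SLAMF7 and S100A12. Of the 15 macrophage and Kupffer cell markers tested, 2 fell (C1QA and CD5L), 0 rose and 13 did not pass, and none of the 15 had a positive log2 fold change. Over all genes 0.0889% were called lower and 51.6% had a negative log2 fold change. Their median was -1.40, with median ratios of -0.95, -3.18 and -1.55 in cows 581, 576 and 567. Only 6 of the 15 were lower in all 3 cows, against 11.4% of all genes. At an unadjusted p under 0.05, 9 of the 15 were lower, against 2.63% of all genes. The summed level of the 15 markers was 655 to 1218 CPM in control slices and 167 to 463 CPM in GW-501516 slices, so the groups did not overlap. In the GW-501516 library of cow 576, 6 of the 15 markers had no count, and without that library the list's median was -0.75 with 3 calls. In bulk slices fewer cells of a type and less RNA per cell cannot be told apart.

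C1QA, a chain of complement C1q made by macrophages, was at 270.1, 80.6 and 149.2 CPM in control slices and at 74.5, 26.4 and 34.9 CPM in GW-501516 slices. The control level differed by cow, the ratios were -1.84, -1.57 and -2.06, and the log2 fold change was -1.86 ± 0.39 (SE, adjusted p = 0.0439). C1QC, its partner chain, had -2.52 ± 0.71 (0.225) and did not pass. CD5L, a secreted protein of Kupffer cells, had 165.5, 8.09 and 67.5 CPM in control slices against 8.25, 0 and 17.4 CPM in GW-501516 slices (-3.09 ± 0.74, adjusted p = 0.0957). The groups overlapped because the control slices of cow 576 were low. Some genes on none of the marker lists, named because they were called lower, are given here too. CTSD, a lysosomal protease, fell by 1.34 on the log2 scale (SE 0.30, adjusted p = 0.0606). GRN, the precursor of granulins, fell by 1.29 (SE 0.30, 0.0756), and GPNMB, a lysosomal membrane glycoprotein, by 1.56 (SE 0.41, 0.162). In bulk slices the cells behind these falls are not known. GRN was chosen after its values were seen.

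SLAMF7, a receptor of natural killer and other immune cells, fell with the smallest p among the genes that fell. It was at 575.7, 550.6 and 354.5 CPM in control slices and at 117.6, 167.1 and 124.3 CPM in GW-501516 slices, 3.66-fold lower with no overlap (log2 fold change -1.87 ± 0.33, adjusted p = 0.0109). SLAMF7 was the only one of 19 T and natural killer cell markers that was called, against 0.0889% of all genes called lower. The median of that list was -0.75, with 13 negative and 6 positive log2 fold changes, where 51.6% of all genes were negative. Only 5 of the 19 were lower in all 3 cows, against 11.4% of all genes. At an unadjusted p under 0.05, 3 were lower and 1 higher, against 2.63% and 4.67% of all genes. S100A12, a calcium-binding protein of neutrophils, was at 16.7, 61.1 and 10.0 CPM in control slices and at 2.52, 13.5 and 1.89 CPM in GW-501516 slices (-2.55 ± 0.55, adjusted p = 0.0471). It was lower in each cow, while the GW-501516 slices of cow 576 were above the control slices of cow 567. The summed level of the 6 neutrophil markers tested, S100A12 included, was 74.9 to 103.5 CPM in control slices and 26.8 to 55.3 CPM in GW-501516 slices. Of the 6, 4 had a negative and 2 a positive log2 fold change, and 1 was called lower. Over all genes 51.6% had a negative log2 fold change and 0.0889% were called lower. The median ratios of the list were -0.06, -2.10 and -1.21 in cows 581, 576 and 567. ADA, adenosine deaminase, had 56.9, 20.7 and 14.2 CPM against 3.44, 0 and 3.97 CPM (-3.71 ± 0.95, adjusted p = 0.137).

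The 12 MHC class II genes, which present antigen, had a median of -1.31 with ratios of -0.11, -2.29 and -0.91 in cows 581, 576 and 567. None was called by edgeR, and DESeq2 called 4 lower. At an unadjusted p under 0.05, 5 of the 12 were lower, against 2.63% of all genes. CTSS, the protease that trims the invariant chain, had -1.41 ± 0.40 (adjusted p = 0.216), CD74, the invariant chain, -1.17 ± 0.37 (0.311), and the interferon-induced MX1 -1.70 ± 0.54 (0.312), each lower in every cow. Without the GW-501516 library of cow 576 the median of the MHC class II list was -0.46, and that of the 27 interferon-stimulated genes went from -0.69 to 0.10. The 8 called genes of these paragraphs were C1QA, CD5L, SLAMF7, S100A12, CTSD, GRN, GPNMB and ADA, the last 4 on none of the marker lists. Of the 8, only GPNMB kept its call without the control library of cow 581 (the other 7 had adjusted p of 0.335 to 0.888). Only SLAMF7 kept it without that of cow 567 (0.213 to 0.597 for the other 7). ADA and GPNMB were lost without the control library of cow 576 (0.299 to 0.467), ADA and CD5L without the GW-501516 library of cow 581 (0.243 to 0.250), GRN without that of cow 576 (0.249) and GPNMB without that of cow 567 (0.298).

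**Figure D3:**
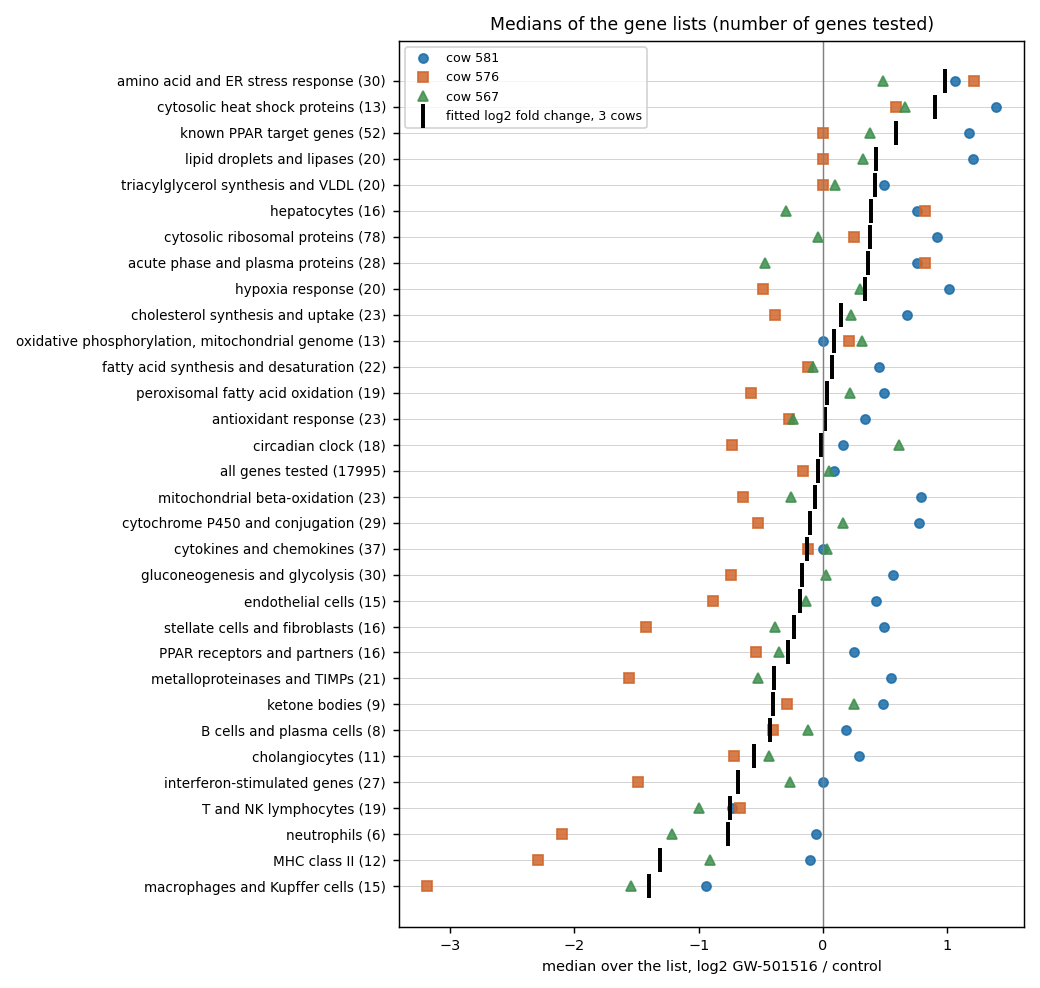
Median over each gene list of the log2 ratio of GW-501516 to control in cows 581, 576 and 567 (coloured points) and of the fitted log2 fold change (black marks), with the number of genes tested in parentheses. The stress and heat shock lists lie at 0.98 and 0.90 and the macrophage list at -1.40, and cow 576 has the lowest point in many of the lists.

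Of the metalloproteinase and TIMP list TIMP1 and MMP19 fell. TIMP1, an inhibitor of matrix metalloproteinases, was at 176.6, 222.7 and 140.2 CPM in control slices and at 62.3, 32.0 and 42.7 CPM in GW-501516 slices, with no overlap (-1.83 ± 0.44 on the log2 scale, adjusted p = 0.0957). MMP19, a metalloproteinase, was at 52.5, 185.6 and 95.4 CPM against 21.7, 8.92 and 33.8 CPM (-1.95 ± 0.52, adjusted p = 0.169). The other 19 of the 21 genes tested did not pass, 7 of the 21 had a positive log2 fold change, and the median of the list was -0.39. Over all genes 0.0889% were called lower. MMP11 had 3.56 ± 1.38 (0.508) and MMP9 -4.04 ± 1.2 (0.266), neither called. The summed level of 16 stellate cell and fibroblast markers was 446, 1622 and 620 CPM in the control slices of cows 581, 576 and 567. In their GW-501516 slices it was 591, 540 and 566.9 CPM, higher in cow 581 and lower in the others. That of 15 endothelial markers was 801, 763 and 567.6 CPM in control slices and 520, 554 and 513 CPM in GW-501516 slices.

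PROX1, a homeobox factor of hepatocytes and lymphatic endothelium, was at 1716, 683.4 and 689.7 CPM in control slices and at 135.4, 253.3 and 468.5 CPM in GW-501516 slices (-1.82 ± 0.43, adjusted p = 0.0903). The fall was far larger in cow 581, with a ratio of -3.65, than in cow 567, with -0.56. IQGAP2, a scaffold protein of the liver, was lower by a like amount in all 3 cows, with ratios of -1.32, -1.36 and -1.76 (-1.48 ± 0.34, adjusted p = 0.0756). SMARCA1, a chromatin remodeller, fell by 1.92 (SE 0.46, adjusted p = 0.102), LIMA1, an actin-binding protein, by 1.81 (SE 0.47, 0.144), and CD82, a tetraspanin, by 1.95 (SE 0.52, 0.187). None of TIMP1, MMP19, PROX1, IQGAP2, SMARCA1, LIMA1 and CD82 was called when the control library of cow 581 was omitted (adjusted p of 0.345 to 0.888) or of cow 567 (0.213 to 0.535). LIMA1, MMP19 and SMARCA1 were lost without that of cow 576 (0.323 to 0.360), CD82, LIMA1, MMP19 and TIMP1 without the GW-501516 library of cow 576 (0.207 to 0.291), and CD82, LIMA1 and PROX1 without that of cow 581 (0.234 to 0.319).

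The same genes were set beside the other agonists, and the difference between compounds was tested in the same fit. All agonists were set against the same 3 control libraries, so their changes are not independent of each other, and GW-501516 was used at 50 µM against 100 µM for the others, so a difference between compounds is also one between doses. Between GW-501516 and WY-14643 58 genes were called (0.322% of those tested), and between GW-501516 and rosiglitazone 28 (0.156%). The WY-14643 libraries of cows 581 and 567 and the GW-501516 library of cow 581 carry the mark named above and had low shares of RN18S1. The part of this in the differences between compounds was not tested. Of the 13 stress and heat shock genes named above, 4 were called higher with GW-501516 than with WY-14643. The difference was 1.74 ± 0.40 on the log2 scale for TRIB3 (SE, adjusted p = 0.0969), 1.37 ± 0.35 for DDIT3 (0.195), 1.51 ± 0.34 for DNAJB1 (0.0922) and 1.62 ± 0.38 for HSPA6 (0.134). Against control, WY-14643 gave 0.99 ± 0.39, 0.03 ± 0.34, 0.21 ± 0.33 and 0.76 ± 0.38 for these genes, none called. The other 9 did not pass, with differences from -0.12 ± 0.41 for DNAJB9 (adjusted p = 0.999) to 1.03 ± 0.38 for HYOU1 (0.716). None of the 13 differed from rosiglitazone at the threshold. Against control, rosiglitazone gave called rises of TRIB3 (1.48 ± 0.40, 0.0999), DDIT3 (1.14 ± 0.35, 0.186) and DNAJB9 (1.71 ± 0.43, 0.0616). WY-14643 gave called rises of DNAJB9 (2.07 ± 0.44, 0.0311) and PDIA4 (1.97 ± 0.48, 0.0800). The rest of the 13 were called with neither. TES was also higher with GW-501516 than with WY-14643, by 1.60 ± 0.40 (0.173). PDK4, which was not called against control, was higher with GW-501516 than with WY-14643 by 1.48 ± 0.29 (adjusted p = 0.0764). Against control it had 0.84 ± 0.29 with GW-501516 and -0.64 ± 0.29 with WY-14643.

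S100A12 was lower with GW-501516 than with WY-14643 by -4.52 ± 0.58 on the log2 scale (adjusted p = 0.000251). With WY-14643 it was at 29.2, 1007 and 11.6 CPM in cows 581, 576 and 567, so that 1 library was far above the others, and the log2 fold change of 1.98 ± 0.53 against control was not called (0.147). The difference was called whichever of the GW-501516, control and WY-14643 libraries was left out, and was -3.12 ± 0.75 without the WY-14643 library of cow 576 (0.0695). TIMP1 differed by -2.18 ± 0.46 (0.0824) and MMP9 by -5.99 ± 1.24 (0.0764), and the same WY-14643 library was the highest for both, at 676.9 CPM of TIMP1 against 146.1 and 81.7 CPM, and 226.8 CPM of MMP9 against 1.95 and 3.20 CPM. Without it TRIB3, DDIT3, DNAJB1, HSPA6, TES, TIMP1 and MMP9 did not pass against WY-14643, with adjusted p from 0.245 for TIMP1 to 0.556 for DDIT3 and 1 for MMP9. DDIT3 was also lost without the WY-14643 library of cow 581 (0.450), and HSPA6 and PDK4 without that of cow 567 (0.294 and 0.256). Without the GW-501516 library of cow 576 none of TRIB3, DDIT3, DNAJB1, HSPA6, TES, PDK4, TIMP1 and MMP9 differed from WY-14643 at the threshold, with adjusted p up to 0.201 for PDK4 and 0.916 for TES. Without the control library of cow 567 TRIB3, DDIT3, DNAJB1, HSPA6, TES and TIMP1 were lost. HSPA6 was also lost without the GW-501516 library of cow 581, and TES and MMP9 without that of cow 567. Against rosiglitazone, APOB was lower with GW-501516 by -2.27 ± 0.42 (adjusted p = 0.021) and IQGAP2 by -1.68 ± 0.34 (0.0631), the latter not without the GW-501516 library of cow 567 (0.281). Neither difference passed without the rosiglitazone library of cow 576 (0.615 and 0.751).

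Other genes are given side by side with no call between compounds. PLIN2 had log2 fold changes of 1.34 ± 0.27 with GW-501516, 0.56 ± 0.26 with WY-14643 and 1.35 ± 0.27 with rosiglitazone. CREB3L3 had 1.72 ± 0.43, 0.48 ± 0.42 and 1.86 ± 0.44 in the same order. CYP3A4 had 1.81 ± 0.33, 1.95 ± 0.33 and 1.75 ± 0.32, ANGPTL8 had 3.37 ± 0.66, 3.11 ± 0.64 and 3.54 ± 0.66, and LBP had 2.02 ± 0.38, 2.30 ± 0.38 and 2.71 ± 0.39. SLAMF7 had -1.87 ± 0.33, -1.61 ± 0.33 and -2.34 ± 0.34. A difference that missed the threshold does not show that the compounds acted alike.

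**Figure D4:**
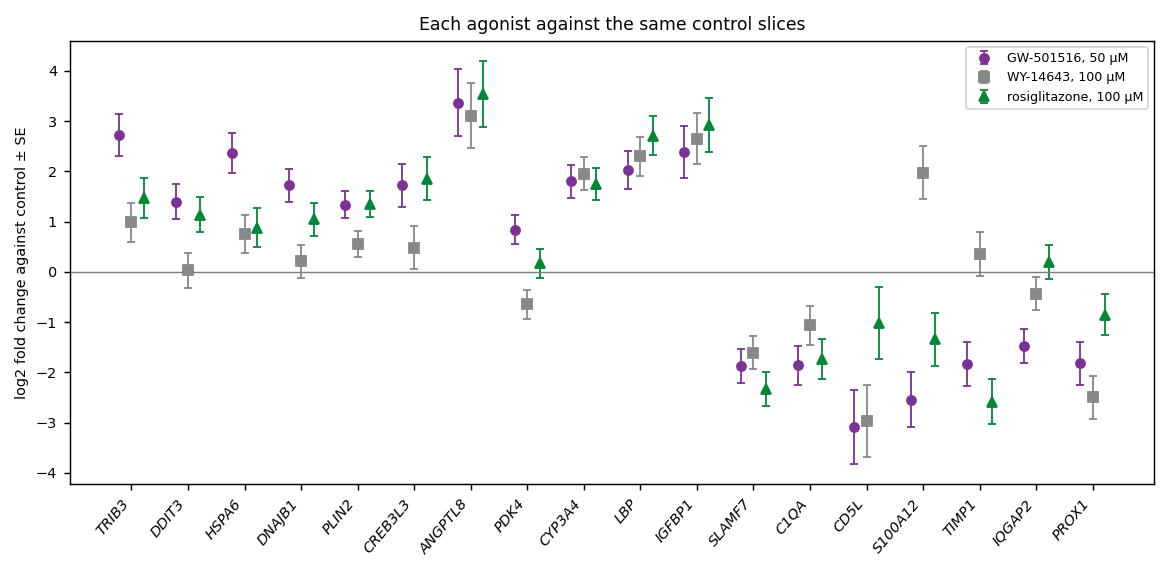
Log2 fold change against control (points) with GW-501516 at 50 µM and with WY-14643 and rosiglitazone at 100 µM, for 18 genes. Bars are the SE of the fit and not the spread between cows. The points of TRIB3 lie at 2.73, 0.99 and 1.48, those of S100A12 at -2.55, 1.98 and -1.35, and those of CYP3A4 close together between 1.75 and 1.95.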

How the data were processed

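RNA of liver slices was sequenced from the 3′ end (QuantSeq FWD) and the authors deposited raw counts per gene, made with Trimmomatic 0.39 and STAR 2.7.1 on ARS-UCD1.2 per the labels, which also name StringTie 2.0. No source used here gives the strand setting, which leaves overlapping genes uncertain. The 4 tallies that name no gene (43.5% to 69.9% of a column in the 6 libraries) stayed out of totals, and 26 gene names turned into dates were kept as unnamed genes. The 12 libraries of cows 581, 576 and 567 were fitted with edgeR 4.0.16 (R 4.3.3, TMM, glmQLFit legacy=TRUE, 6 residual degrees of freedom, cow as block), testing GW-501516 against control over genes whose highest count in their 6 libraries exceeded 4. Libraries of a cow come from 1 animal, which pairs them. The correlations of their deviations from the group means were -0.03, 0.04 and 0.09 (cows 581, 576 and 567). Levels are TMM-adjusted CPM. Each SE is the size of the log2 fold change divided by the square root of the test's F statistic. That statistic draws on all 12 libraries and on other genes (23.5 prior degrees of freedom), so the SE does not measure the spread between cows. The fit was tested on simulated data that held no differences between cows. Of genes changed 2-fold it called 5 of 67, of those changed 4-fold 24 of 67, and of those changed 8-fold 45 of 66. Of its 88 calls 14 were false. A gene that did not pass may therefore still have changed.

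Named genes were the 15 with the largest change per direction (adjusted p under 0.2, mean of 50 counts, same direction in all cows), the 10 with the smallest p, the 3 with the smallest p of each list and genes the study discusses. LOC names were counted, and described only where RefSeq (ARS-UCD2.0, 90.2% of names matched) gives their kind. Members and lists were chosen with earlier results of these data known. Alternatives were DESeq2 1.42.0, other filters and scalings, and leaving out libraries. The result of 1 gene the rule names is not reported here.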

Additional observations from a re-analysis of the deposited data

How the results depend on the processing

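All 86 genes called against control kept their direction in each alternative fit. Their number did not keep. Genes called higher, called lower, called against WY-14643 and called against rosiglitazone numbered 9, 1, 0 and 2 without the pairing by cow (no replicate block, where edgeR gave 908 genes at an unadjusted p under 0.05 against WY-14643), 563, 394, 443 and 363 by DESeq2 with the replicate block, and 343, 174, 130 and 83 by DESeq2 without it. They numbered 18, 4, 6 and 4 under filterByExpr, 260, 117, 216 and 108 with no filter beyond 1 count, 20, 1, 2 and 3 with cow 574 added, and 147, 189, 450 and 181 without the 3 marked libraries. An alternative chosen after seeing the data, a filter over the 12 libraries, gave 276, 126, 230 and 113. Genes called lower numbered 52 with the 6 libraries alone, 35 with median-of-ratios size factors and 25 with legacy=FALSE, and 38 genes were called against WY-14643 with RN18S1 left out. The cause of these shifts was not tested. With 1 library or cow left out the 4 counts ranged over 9 to 614, 1 to 157, 9 to 445 and 5 to 128, where leaving out the WY-14643 and rosiglitazone libraries was chosen after seeing the data.

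The 193 genes at least 2-fold higher and 249 at least 2-fold lower in all 3 cows became 63 and 59 with 5 CPM added, and 476 to 986 and 478 to 1262 with a cow left out, where fewer pairs must pass. The log2 fold change of PPARD ranged from -0.82 to 0.38 with a library or cow left out. Without RN18S1 the 6 libraries held 1668896 to 6864557 gene counts, with the control library of cow 581 and the GW-501516 library of cow 576 the shallowest, which limits the precision of low genes.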

Other observations

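Outside the lists, 7 further genes called higher are given here, all chosen after their values were seen. Of these, GLDC, PPM1K and SLC25A38 serve amino acid metabolism or transport in mitochondria, and no list of such genes was tested. GLDC, a subunit of the glycine cleavage system, was at 10.7, 13.4 and 18.1 CPM in the control slices of cows 581, 576 and 567 and at 90.5, 39.3 and 58.2 CPM in GW-501516 slices (log2 fold change 2.10 ± 0.53 SE, adjusted p = 0.132). PPM1K, the phosphatase that activates branched-chain ketoacid dehydrogenase, rose by 1.97 ± 0.45 (0.0743), and SLC25A38, a mitochondrial glycine carrier, by 2.37 ± 0.62 (0.146). AQP8, a channel for water and hydrogen peroxide, rose by 2.38 ± 0.59 (0.118), AZGP1, a secreted zinc-binding glycoprotein, by 2.10 ± 0.52 (0.118), and TP53INP1 and AEN, both targets of p53 in other mammals, by 1.51 ± 0.39 (0.137) and 1.37 ± 0.37 (0.195). None of these 7 was called without the control library of cow 581 (0.641 to 0.888) or of cow 576 (0.226 to 0.585), GLDC, PPM1K, SLC25A38 and AZGP1 were lost without that of cow 567 (0.213 to 0.466), AEN, AQP8, AZGP1, PPM1K and SLC25A38 without the GW-501516 library of cow 576 (0.209 to 0.494), and GLDC and TP53INP1 without that of cow 581 (0.274 to 0.281).

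Chemokines did not share a direction. CXCL2 and CXCL8, which attract neutrophils, had log2 fold changes of 2.14 ± 0.60 (adjusted p = 0.216) and 1.11 ± 0.37 (0.335), and CXCL9, which attracts T cells, -3.02 ± 1.08 (0.430), none called. Of 78 cytosolic ribosomal protein genes 72 had a positive log2 fold change, against 48.4% of all genes, with a median of 0.38. Only 10 of the 78 (12.8%) were higher in all 3 cows, close to the 10.3% of all genes. None was called by edgeR and DESeq2 called 1. At an unadjusted p under 0.05, 15 of the 78 were higher, against 4.67% of all genes. By cow the median ratios of this list were 0.91, 0.25 and -0.04, in the order 581, 576 and 567.

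In the pair of cow 574, which the fit did not use, 41 of the 61 genes called higher with at least 5 counts were higher in the GW-501516 slices (67.2%), with a median ratio of 0.56. Of the genes called lower, 10 of 15 were also higher there (66.7%, median 0.17). Of all genes tested, 52.5% were higher. The control and GW-501516 libraries of this cow held 924251 and 970406 gene counts.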
